A study of Mus musculus with 7 samples.

Results

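The 9 genes described here, Flt3, Zbtb46, Xcr1, Clec9a, Cd209a, Clec10a, Mgl2, Fscn1 and Siglech, are in common use as markers of the subsets of dendritic cells. They were taken by symbol from single-cell count tables of the mouse pancreas that list 33864 genes, and all 9 had at least 1 molecule in every library. The pancreata came from C57BL/6 mice aged 2 months, and each of the 7 mice gave 1 library. The 2 WT mice and the 3 i4F mice received doxycycline at 1 mg/ml in drinking water with 7.5% sucrose for 7 days. i4F mice carry, on 1 allele, a cassette that doxycycline switches on and that encodes Oct4, Sox2, Klf4 and c-Myc, inserted in Pparg according to the methods, together with the rtTA transactivator expressed in all tissues from Rosa26, so that neither is restricted to a cell type. The 2 caerulein mice were wild type, received no doxycycline, and were injected with caerulein, an analogue of cholecystokinin that causes acute pancreatitis, at 100 µg/kg, 7 times a day on 2 days. Each comparison asks whether the dendritic cell genes differ between a wild-type pancreas under doxycycline, a partially reprogrammed and an inflamed pancreas. Caerulein mice differ from WT and i4F mice in doxycycline as well as in injury, and the effects cannot be told apart. Treated libraries below are those of i4F and caerulein mice, although WT mice also received doxycycline.

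Dendritic cells take up antigen in tissues, present it on MHC class II and carry it to lymph nodes to prime T cells. Conventional type 1 cells (cDC1) cross-present antigen of dead cells to CD8 T cells, conventional type 2 cells (cDC2) mainly prime CD4 T cells, and plasmacytoid cells release type I interferon. Mature cells of either conventional type switch to a shared migratory programme, and several lectins of cDC2 are also carried by tissue macrophages, so that few of these genes mark a single cell type in the pancreas.

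The genes differ in where they lie and in the sequence before their start, and the windows of 4 genes whose levels the results turn on are shown with the genes that neighbour each other. Positions are those of RefSeq on GRCm38.p6. Flt3 lies on chromosome 5 from 147330741 to 147400489, Zbtb46 on chromosome 2 from 181371009 to 181493262, Xcr1 on chromosome 9 from 123852315 to 123862029 and Clec9a on chromosome 6 from 129408862 to 129424764. Cd209a lies on chromosome 8 from 3743395 to 3748984, Fscn1 on chromosome 5 from 142960355 to 142973189 and Siglech on chromosome 7 from 55768154 to 55779448. Mgl2, on chromosome 11 from 70130125 to 70137542, and Clec10a, on the same chromosome from 70166623 to 70170836, are neighbours with 29080 bases between them. Of the 9 genes, 8 matched a RefSeq promoter window of 300 bases, 250 before the annotated start and 50 from it, and Clec10a did not. The start used for the window is the outer end of the gene span except in Siglech, Mgl2 and Zbtb46, where it lies 30, 232 and 68874 bases into the span, so that 282 bases of the Mgl2 window and all 300 of the Zbtb46 window are within the gene. The windows were searched on both strands for GAGGAA (the core bound by PU.1), TTGCNNAA (a C/EBP core) and TATAAA (the TATA box), which cannot overlap in the matches found. Over all 32817 windows, 28.3% hold GAGGAA, 10.8% hold TTGCNNAA and 13.6% hold TATAAA. Capitals below mark the matches, read on either strand. The Xcr1 window is chr9:123861980-123862279 on the minus strand, with TATAAA at -160 from the start, and the Clec9a window is chr6:129408612-129408911 on the plus strand, with TATAAA at -226. The Mgl2 window is chr11:70130107-70130406 on the plus strand, with GAGGAA at -225, and the Siglech window is chr7:55767934-55768233 on the plus strand, with TTGCNNAA at -169 and GAGGAA at -4.
Xcr1: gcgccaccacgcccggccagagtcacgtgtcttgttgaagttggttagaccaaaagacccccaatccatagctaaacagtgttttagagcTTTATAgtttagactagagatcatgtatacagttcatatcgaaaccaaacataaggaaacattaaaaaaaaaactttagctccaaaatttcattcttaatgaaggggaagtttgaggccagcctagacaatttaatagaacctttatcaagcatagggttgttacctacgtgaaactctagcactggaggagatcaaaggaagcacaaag
Clec9a: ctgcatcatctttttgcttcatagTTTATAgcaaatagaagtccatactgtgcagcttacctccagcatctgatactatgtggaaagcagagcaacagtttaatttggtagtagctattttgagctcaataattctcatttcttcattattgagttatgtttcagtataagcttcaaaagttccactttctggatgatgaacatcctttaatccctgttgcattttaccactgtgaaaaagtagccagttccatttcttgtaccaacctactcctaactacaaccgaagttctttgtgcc
Mgl2: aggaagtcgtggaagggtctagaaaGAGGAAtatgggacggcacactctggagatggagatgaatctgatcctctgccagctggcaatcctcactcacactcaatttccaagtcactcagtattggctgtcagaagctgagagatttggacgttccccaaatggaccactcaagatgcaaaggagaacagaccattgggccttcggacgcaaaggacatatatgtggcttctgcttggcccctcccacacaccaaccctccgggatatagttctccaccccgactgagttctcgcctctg
Siglech: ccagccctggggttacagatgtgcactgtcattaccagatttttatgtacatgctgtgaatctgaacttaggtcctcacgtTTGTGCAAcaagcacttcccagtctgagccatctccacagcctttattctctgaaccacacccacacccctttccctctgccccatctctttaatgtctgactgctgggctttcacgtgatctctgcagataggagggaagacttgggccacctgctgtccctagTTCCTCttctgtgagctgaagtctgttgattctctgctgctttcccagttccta
The windows of Cd209a and Fscn1 hold TATAAA, at -184 and -31, and those of Flt3 and Zbtb46 hold none of the 3. The cDC1 pair Xcr1 and Clec9a thus share a TATAAA match, at different distances, and no match that Cd209a lacks. A match in 300 bases is a description of letters and was not tested as a site.

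The 7 libraries held 58473 cells, 4327 to 15138 per mouse, with 15469018 to 64784216 unique molecular identifiers (UMIs), which count captured mRNA molecules. Immune cells were those of every deposited cluster with a lymphocyte or macrophage name (B, follicular B, NK and T), and numbered 223 and 746 in WT, 4166, 3969 and 2830 in i4F, and 8613 and 3234 in caerulein mice. Their median UMIs per cell ran from 1223 to 3329. The rtTA transgene was at 42.5 to 48.3 counts per 1000000 UMIs (CPM) in i4F and at most 0.951 CPM in the other libraries, whereas Pou5f1, which encodes Oct4, was at 2.54 and 8.34 CPM in i4F 1 and i4F 2 and at 0.194 CPM in the library labelled i4F 3, within the WT range of 0.145 to 0.951 CPM. Sox2 gave 15, 40 and 0 UMIs in the same 3 libraries. The library labelled i4F 3 therefore carries the transactivator without the level of Oct4 RNA of the other i4F mice, it holds 1290 B lymphocyte-named cells among its 2830 immune cells, and i4F results below are given by mouse or also for i4F 1 and i4F 2 alone. Cell barcodes found in 2 libraries numbered 366, none was found in more, and 8 of the 711 cells with a UMI of Flt3, Xcr1, Clec9a or Cd209a carried one.

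For its immune analysis, the paper pooled both doxycycline-treated groups and clustered them again, and a figure legend there has an abbreviation for dendritic cells. That joint annotation is not among the cluster names used here. No deposited cluster was named for dendritic cells. In each condition, summed over its mice, a single immune cluster led by MHC class II genes nevertheless held most UMIs of Flt3, Xcr1, Clec9a and Cd209a, though not of Zbtb46 or Clec10a, and its deposited name differed between conditions. Among WT cells it was the cluster named Macrophages_2, with 155 cells led by H2-Ab1, Il1b and H2-Aa, and 7 of the 8 dendritic cell markers used here (5 of the 9 genes plus H2-Eb1, H2-Ab1 and Ccr7) were raised in it against the other cells, beside 3 of 10 macrophage and 4 of 6 neutrophil markers, with the monocyte gene Chil3 among its leading genes. Among i4F cells it was Macrophages_3, with 584 cells led by H2-Eb1, H2-Ab1 and H2-Aa and with Ccr7 and Ccl17 among its leading genes, and 6 of 8 dendritic cell and 5 of 10 macrophage markers were raised in it. Its share of the UMIs of these 4 genes was not alike in the i4F mice. It held 36.8% of 19 Xcr1 UMIs in i4F 1 and 14.3% of 7 in i4F 2, where Macrophages_1 held 57.1%, against 95.7% of 47 in the library labelled i4F 3, and 75.0%, 39.1% and 63.0% of the Flt3 UMIs of the 3. Among caerulein cells it was the cluster named B_lymphocytes, with 1392 cells led by H2-Aa, H2-Eb1 and H2-Ab1, in which 6 of 8 dendritic cell markers but 2 of 6 B cell markers were raised. The markers used for this check include genes under study. The deposited clusters were made by the authors in each condition apart, so the clusters are set side by side with no test.

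Flt3 encodes the receptor of FLT3 ligand, the growth factor on which dendritic cells and their precursors depend. It reached 48.9 CPM in the WT MHC class II-led cluster, which held 95.3% of the WT Flt3 UMIs. The caerulein cluster stood at 36.2 CPM and held 93.0%, and the i4F cluster stood at 41.1 CPM and held 58.3%, a further 21.2% of i4F Flt3 UMIs lying in the cluster named B_lymphocytes. By mouse, Flt3 in that cluster was at 70.3 and 32.0 CPM in WT, 48.7 and 82.3 CPM in i4F 1 and i4F 2, 28.0 CPM in the library labelled i4F 3, and 34.9 and 42.3 CPM in caerulein mice. The 3 groups overlapped within the cluster. Over immune cells, Flt3 was at 24.8 and 7.52 CPM in WT, 3.40 and 5.08 CPM in i4F 1 and i4F 2, 8.69 CPM in the library labelled i4F 3, and 3.99 and 4.54 CPM in caerulein mice. WT 1 was highest, the library labelled i4F 3 lay above WT 2, and both caerulein mice lay below both WT mice. In such sums over a class, fewer cells of a type and less RNA per cell cannot be told apart.

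Zbtb46 encodes a transcription factor of conventional dendritic cells that is also known from endothelial cells. Summed over the 7 mice, 14.3% of its UMIs came from immune cells, against 24.0% from endothelial and 45.5% from stellate clusters. The order differed between mice, with 45.2% and 42.2% in endothelial and 25.3% and 31.8% in stellate clusters of the WT mice, and 78.5% and 67.7% in stellate clusters of i4F 1 and i4F 2. In the library labelled i4F 3, 29.4% came from immune and 28.2% from stellate clusters, and in caerulein mice 41.7% and 32.4% came from stellate clusters. Within immune cells it was at 9.53 and 6.58 CPM in WT, 2.36 and 1.30 CPM in i4F 1 and i4F 2, 4.83 CPM in the library labelled i4F 3, and 1.05 and 0.872 CPM in caerulein mice. The 3 groups did not overlap, in the order WT, i4F and caerulein. The counts behind these values are small, between 5 and 27 UMIs per mouse. Acinar cells gave 4.89 to 5.21 CPM in WT, 0.283 to 1.79 CPM in i4F and 3.05 to 3.30 CPM in caerulein mice, on 8, 14 and 26 UMIs. Levels below WT in every treated library were thus found in acinar cells too. The immune level of caerulein mice was below their acinar level.

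**Figure D1:**
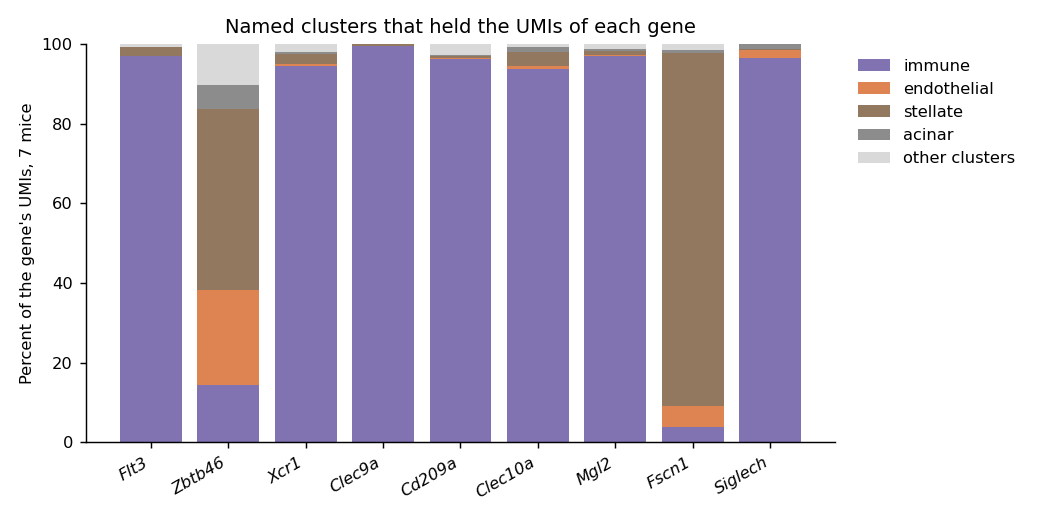
Percent of the UMIs of each gene, summed over 7 mice, that lay in clusters named as immune, endothelial, stellate, acinar or other cells. Zbtb46 (14.3% immune) and Fscn1 (3.96% immune) stand apart from the other 7 genes, each with over 93% of its UMIs in immune clusters.

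Xcr1 is the receptor of XCL1 and Clec9a a receptor for the actin of dead cells, and the pair marks cDC1. In immune cells, Xcr1 was at 39.1 and 8.46 CPM in WT, 1.48 and 0.591 CPM in i4F 1 and i4F 2, 8.89 CPM in the library labelled i4F 3, and 1.97 and 1.92 CPM in caerulein mice. Clec9a was at 34.3 and 14.1 CPM in WT, 0.262 and 0.118 CPM in i4F 1 and i4F 2, 6.57 CPM in the library labelled i4F 3, and 2.58 and 3.84 CPM in caerulein mice. The lowest of these rest on 3 and 1 Clec9a UMIs and on 17 and 5 Xcr1 UMIs in these 2 mice. Clec9a was lower in all 5 i4F and caerulein libraries than in either WT mouse. Xcr1 was so in 4 of the 5, the library labelled i4F 3 lying just above WT 2.

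The MHC class II-led cluster, taken mouse by mouse, gave a like order. There, Clec9a was at 97.4 and 59.7 CPM in the WT mice, at 3.25 CPM in i4F 1, at 0 UMIs in i4F 2, which allows up to 13.7 CPM (3 UMIs), at 29.9 CPM in the library labelled i4F 3 and at 23.2 and 38.8 CPM in caerulein mice. Xcr1 in the same cells was at 111 and 38.4 CPM, then 11.4 and 4.57 CPM, 43.4 CPM, and 14.7 and 19.4 CPM. The cluster of i4F 1 and i4F 2, with 215 and 87 cells, thus held lower CPM of the cDC1 pair than that of any other mouse. These values rest on 9 and 1 UMIs of the pair together. The 13.7 CPM that 3 UMIs make in i4F 2 is near the 14.7 CPM of Xcr1 in caerulein 1, so that the order against caerulein mice is not settled for Xcr1. Flt3 in the cluster of i4F 1 and i4F 2 was within or above the WT values given earlier.

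UMIs of the cDC1 pair were found in the same cells. Of 23781 immune cells, 117 had an Xcr1 UMI and 134 a Clec9a UMI, and 48 had both, which is 41.0% of the former and 35.8% of the latter. Of the cells with a Clec9a UMI, 30.6% also had a Flt3 UMI. Not 1 cell had UMIs of both Xcr1 and Cd209a, the gene of the other conventional subset, which allows up to 3 cells. UMIs of both Clec9a and Cd209a were found in 8 cells. Cells with any of these genes were few among immune cells, and whether either overlap with Cd209a differs from chance was not tested. These overlaps therefore do not show that the subsets are separate.

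Genes that the selection did not use set the Xcr1 cells of WT and caerulein mice, each pooled, apart from the other immune cells as well. Such shares, here and below, pool the cells of a condition unless mice are named, and the mice did not contribute evenly. WT 1 and WT 2 gave 41 and 18 immune Xcr1 UMIs, and caerulein 1 and caerulein 2 gave 49 and 11. To compare cells of unlike depth, each cell was thinned to 1000 UMIs. Naaa, a lysosomal amidase of cDC1, was then found in 56.9% of the WT cells with an Xcr1 UMI and in 3.65% of the other WT immune cells, in 25.7% against 3.82% in i4F, and in 44.8% against 3.47% in caerulein mice. Irf8, the transcription factor on which cDC1 depend, was found in 68.4% against 15.9% in WT, 42.8% against 9.31% in i4F and 45.3% against 12.4% in caerulein mice. C1qa, a complement gene of macrophages, ran the other way, at 0 of 27 cells in WT, which allows up to 11.1%, against 46.4%, 21.8% against 47.6%, and 17.5% against 67.3%. In i4F 1 and i4F 2 alone, with 18 Xcr1 cells, Naaa was found in 6.82% against 4.53%, on 3 cells, Irf8 in 14.2% against 7.48%, and C1qa in 42.0% against 58.7%. The i4F values of Naaa and Irf8 thus rest largely on the library labelled i4F 3. Among the WT Xcr1 cells, 4 of the 5 macrophage genes looked at were not detected, and Adgre1 was found in 1 of the 27 cells.

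Cd209a encodes a lectin of the DC-SIGN family carried by cDC2 and by monocyte-derived dendritic cells, and in these data it lay mainly in the MHC class II-led clusters except in i4F 2. They held 86.1% of its UMIs in WT at 496 CPM, 79.7% in i4F at 52.4 CPM and 97.8% in caerulein mice at 120 CPM. The i4F cluster was at 24.4 and 9.15 CPM in i4F 1 and i4F 2, on 15 and 2 UMIs that were 62.5% and 28.6% of Cd209a UMIs there, and at 78.1 CPM in the library labelled i4F 3, with 88.0% of them. Over all immune cells, Cd209a was at 173 and 129 CPM in WT, 1.92 and 0.709 CPM in i4F 1 and i4F 2, 17.8 CPM in the library labelled i4F 3, and 14.7 and 5.23 CPM in caerulein mice. Every i4F and caerulein library lay far below both WT mice, and the i4F and caerulein groups overlapped.

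The share of cells followed the level. Cd209a UMIs were found in 7.62% (exact 95% interval 4.50 to 11.9%) and 7.51% (5.72 to 9.64%) of WT immune cells, in 0.456% (0.275 to 0.711%), 0.126% (0.0409 to 0.294%) and 0.989% (0.658 to 1.43%) of i4F cells, and in 1.73% (1.47 to 2.03%) and 0.588% (0.354 to 0.916%) of caerulein cells. Thinned to 1000 UMIs per cell, which left out 4.04 to 33.7% of immune cells per mouse, the shares were 4.97% and 5.11% in WT, 0.314%, 0.0740% and 0.910% in i4F, and 1.35% and 0.416% in caerulein mice. Acinar cells, which should lack the gene, gave at most 0.0542% after thinning, at median depths of 431 to 2214 UMIs per cell before it. The share in i4F 2 is thus close to that background in size, and the others lie above it. The background rests on 1 acinar Cd209a UMI in i4F 1 and 1 in caerulein 1, and the acinar cells of i4F 2 gave 0. The intervals cover counting error only.

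WT cells with a Cd209a UMI held Irf8 in 2.36% after thinning, against 18.8% of the other WT immune cells, which sets them apart from the Xcr1 cells, and the other 2 groups did not show this gap alike, with 17.5% against 9.43% in i4F and 6.60% against 12.6% in caerulein mice. H2-Ab1, an MHC class II chain, was found in 83.0% of Cd209a cells against 63.2% of the others in WT, 90.7% against 19.4% in i4F and 97.9% against 11.8% in caerulein mice. Ccr7, the chemokine receptor that leads mature dendritic cells to lymph nodes, was found in 21.3% against 10.1%, 26.1% against 9.14%, and 17.3% against 0.834%. In the 24 Cd209a cells of i4F 1 and i4F 2 alone, Irf8 was found in 17.0% against 7.46%, H2-Ab1 in 85.7% against 9.08% and Ccr7 in 19.5% against 3.21%. Cd209a cells were thus MHC class II cells in each condition, with Ccr7 more often detected in them than in the other immune cells.

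**Figure D2:**
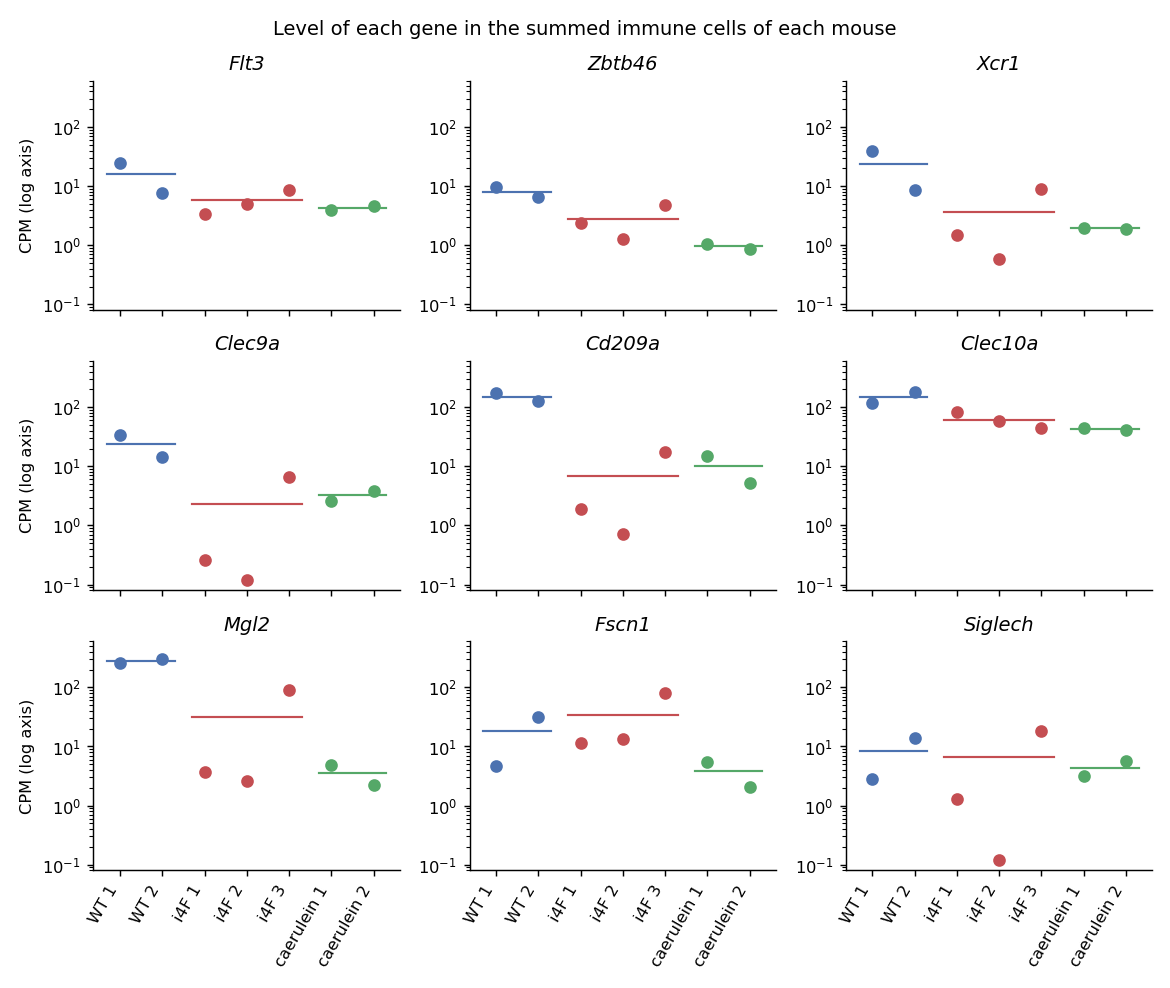
Level of each gene in CPM, on a log axis, in the summed immune cells of each mouse, with 1 point per mouse and a bar at each group mean. Cd209a, Mgl2, Clec9a and Xcr1 of i4F 1 and i4F 2 sit far under the WT points, and the third i4F point, the library labelled i4F 3, sits between them and WT for Cd209a, Clec9a and Mgl2.

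Clec10a and Mgl2 encode the paired C-type lectins MGL1 and MGL2, which bind galactose and N-acetylgalactosamine on glycoproteins. Both are carried by macrophages, and MGL2 in particular also by dermal and other tissue cDC2. Over immune cells, Mgl2 was at 261 and 308 CPM in WT, 3.66 and 2.60 CPM in i4F 1 and i4F 2, 89.4 CPM in the library labelled i4F 3, and 4.92 and 2.27 CPM in caerulein mice. Clec10a was at 119 and 183 CPM in WT, 83.0 and 58.6 CPM in i4F 1 and i4F 2, 43.9 CPM in the library labelled i4F 3, and 44.6 and 41.3 CPM in caerulein mice. For both genes, all i4F and caerulein libraries lay below both WT mice, but Mgl2 differed by far more than its neighbour in all of them except the library labelled i4F 3.

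The balance of the pair shows this within each mouse. Mgl2 gave 68.7% (exact 95% interval 63.9 to 73.2%) and 62.7% (59.7 to 65.7%) of the summed Mgl2 and Clec10a UMIs in WT immune cells. It gave 4.23% (3.06 to 5.67%) and 4.25% (2.68 to 6.36%) in i4F 1 and i4F 2, 67.1% (63.5 to 70.6%) in the library labelled i4F 3, and 9.93% (8.31 to 11.7%) and 5.20% (2.80 to 8.73%) in caerulein mice. The library labelled i4F 3 sat with the WT mice, and the other 4 treated libraries lay at 9.93% or below. The same split was found in the clusters that the authors named macrophages. Mgl2 gave 79.7% and 56.8% of the pair in Macrophages_1 of WT 1 and WT 2, 1.27% and 2.52% in Macrophages_1 of i4F 1 and i4F 2, and 41.3% there in the library labelled i4F 3. In caerulein mice it gave 1.65% and 1.11% in Macrophages_1, and 2.07% and 2.83% in Macrophages_2. In the MHC class II-led cluster it gave 61.8% and 75.9% in WT, 16.2% and 25.0% in i4F 1 and i4F 2, 75.0% in the library labelled i4F 3, and 26.2% and 16.7% in caerulein mice, so that the treated mice kept more Mgl2 relative to Clec10a there than in their macrophage clusters.

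The 2 genes share sequence, so part of their UMIs could have been assigned to the wrong member. Of the windows of 30 bases in the last 500 bases of the longest Clec10a transcript, near the end that a 3′ assay reads, 25.1% are found in an Mgl2 transcript, whereas no window of the last 500 bases of the longest Mgl2 transcript is found in Clec10a. How Cell Ranger divided such reads was not tested, and the values of both genes are uncertain to that extent.

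**Figure D3:**
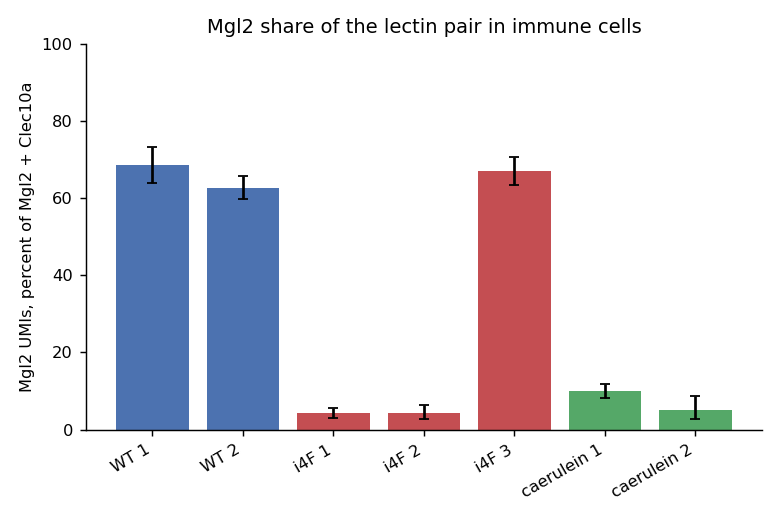
Mgl2 UMIs as a percent of the Mgl2 and Clec10a UMIs in the immune cells of each mouse, with exact 95% binomial intervals. The WT mice and the library labelled i4F 3 stand at 62.7% or above, and the other 4 mice at 9.93% or below.

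Mgl2 cells carried a macrophage gene more often than the other immune cells in WT and not in every group. After thinning, C1qa was found in 82.1% of WT cells with an Mgl2 UMI against 30.8% of the other WT immune cells, in 69.6% against 47.0% in i4F, and in 41.7% against 67.2% in caerulein mice, where the order was the reverse. It was the reverse also in the 45 Mgl2 cells of i4F 1 and i4F 2 alone, at 52.0% against 58.7%, as most Mgl2 cells of the i4F group came from the library labelled i4F 3. Of the 293 cells with a Cd209a UMI, 33.4% had an Mgl2 UMI and 50.2% a Clec10a UMI, and of the 497 cells with an Mgl2 UMI 40.8% had a Clec10a UMI. In shares of immune cells thinned to 1000 UMIs, Mgl2 was found in 10.2% and 19.4% in WT, 0.422%, 0.192% and 4.06% in i4F, and 0.460% and 0.232% in caerulein mice, and Clec10a in 5.01% and 14.6%, then 7.13%, 3.39% and 2.60%, then 4.53% and 3.72%. Unthinned, the Mgl2 shares were 18.4% (13.5 to 24.1%) and 28.8% (25.6 to 32.2%) in WT and 0.309% to 4.28% in the other libraries, and the Clec10a shares ran from 3.18% to 21.8%. Acinar cells gave up to 0.298% for Mgl2, in the library labelled i4F 3, and up to 0.361% for Clec10a. The WT shares of Mgl2 lie well above that level. Those of i4F 1, i4F 2 and the caerulein mice lie near it in size, although the acinar cells of the same mice gave 0 Mgl2 UMIs.

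Clec10a was also counted outside immune cells, at few UMIs. In endothelial clusters Clec10a gave 1 and 2 UMIs in WT, 1, 4 and 0 in i4F, and 20 and 6 in caerulein mice, a ratio of the pooled rates of caerulein to WT of 26.2 with an exact counting interval of 8.03 to 135. In stellate clusters it gave 0 and 2 UMIs in WT, 50, 21 and 4 in i4F, and 47 and 8 in caerulein mice, pooled ratios to WT of 7.69 (2.06 to 64.7) and 11.2 (2.96 to 95.1), and of 7.73 (2.06 to 65.0) for i4F 1 and i4F 2 alone. Group means of Clec10a over stellate clusters were 0.110 CPM in WT, 1.02 CPM in i4F and 1.37 CPM in caerulein mice. In acinar cells they were 0.612, 1.47 and 3.01 CPM, on 1, 17 and 24 UMIs. The stellate means thus did not exceed the acinar ones. The summed level of the 10 macrophage markers moved with the endothelial and stellate counts. Over endothelial clusters the markers summed to 95.4 and 106 CPM in WT, 190 to 535 CPM in i4F, and 3916 and 2238 CPM in caerulein mice, and over stellate clusters to 79.4 and 88.6 CPM, 167 to 250 CPM, and 764 and 505 CPM. Csf1r and C1qa are among these markers, at most 2 of the 10 were at 0 in any library, and their part in the Clec10a counts was not tested.

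Fscn1 encodes fascin, the actin-bundling protein of the dendrites of mature dendritic cells, and it is also made by stromal and endothelial cells. Summed over the 7 mice, 88.6% of its UMIs came from stellate clusters, 5.13% from endothelial and 3.96% from immune clusters, a sum led by 4 treated libraries with 91.3 to 96.1% in stellate clusters. The WT mice had 46.6% and 51.9% in stellate and 42.3% and 38.9% in endothelial clusters, and the library labelled i4F 3 had 312 of 820 UMIs in stellate and 409 (49.9%) in immune clusters. A level over all cells is therefore mainly a stellate level in i4F 1, i4F 2 and the caerulein mice, and not in the other libraries. Over stellate clusters it was at 32.2 and 70.7 CPM in WT, 192 and 149 CPM in i4F 1 and i4F 2, 77.2 CPM in the library labelled i4F 3, and 206 and 131 CPM in caerulein mice. All treated libraries lay above both WT mice, the library labelled i4F 3 by the least. The cells of the class lie in different clusters in each group. Those of WT mice were in Quiescent_Pancreatic_Stellate_1 and Quiescent_Pancreatic_Stellate_2 (2739 and 631 cells) and in Activated_Pancreatic_Stellate (275 cells led by Acta2, Tagln and Myh11). Those of i4F mice were in Activated_Pancreatic_Stellate_1 and Activated_Pancreatic_Stellate_2 (6917 and 1437 cells), and those of caerulein mice in Activated_Pancreatic_Stellate_1 (5715 cells). Leading genes of the i4F cluster Activated_Pancreatic_Stellate_2 included Slpi and Upk3b, which also led the Mesothelium clusters of WT and caerulein mice. The Smooth_muscle clusters of i4F and caerulein mice, led by Rgs5 and Myh11, are outside the class. Fscn1 was at 34.8 and 85.6 CPM in Quiescent_Pancreatic_Stellate_1 of the WT mice, at 195, 152 and 150 CPM in Activated_Pancreatic_Stellate_1 of the i4F mice, and at most at 52.8 CPM in their Activated_Pancreatic_Stellate_2. Of the stellate cells labelled i4F 3, 113 were in the former and 1167 in the latter, so that the lower level of this library over the class went with another split of its cells. Over endothelial clusters it was at 74.4 and 196 CPM in WT, 236, 137 and 105 CPM in i4F, and 158 and 140 CPM in caerulein mice, and the groups overlapped.

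In immune cells, Fscn1 was at 4.76 and 31.5 CPM in WT, 11.3 and 13.6 CPM in i4F 1 and i4F 2, 79.0 CPM in the library labelled i4F 3, and 5.56 and 2.09 CPM in caerulein mice. The library labelled i4F 3 was highest, WT 1 rested on 5 UMIs, and i4F and caerulein mice did not overlap. Acinar cells gave 0 to 3.67 CPM in WT, 5.54 to 12.2 CPM in i4F and 8.67 to 11.7 CPM in caerulein mice. The immune levels of i4F 1 and i4F 2 were thus near the acinar levels, and those of caerulein mice were below them. In the MHC class II-led cluster of i4F mice Fscn1 reached 286 CPM, with 119, 371 and 368 CPM in the 3 libraries, against 5.41 and 113 CPM in WT and 36.4 and 12.3 CPM in caerulein mice. The immune cells with an Fscn1 UMI carried the genes of mature migratory dendritic cells more often than the other immune cells did. Ccr7 was found in 42.3% of them against 10.1% in WT, 47.9% against 8.46% in i4F and 20.1% against 0.957% in caerulein mice, after thinning. Ccl22, a chemokine of mature dendritic cells, was found in 23.9% against 2.19%, 15.5% against 0.412%, and 3.79% against 0.0666%. Il4i1, an amino acid oxidase of the same cells, was found in 21.3% against 1.03%, 22.1% against 0.901%, and 4.85% against 0.404%. In i4F 1 and i4F 2 alone, with 96 Fscn1 cells, the shares were 35.3% against 2.81% for Ccr7, 12.8% against 0.304% for Ccl22 and 14.4% against 0.637% for Il4i1.

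**Figure D4:**
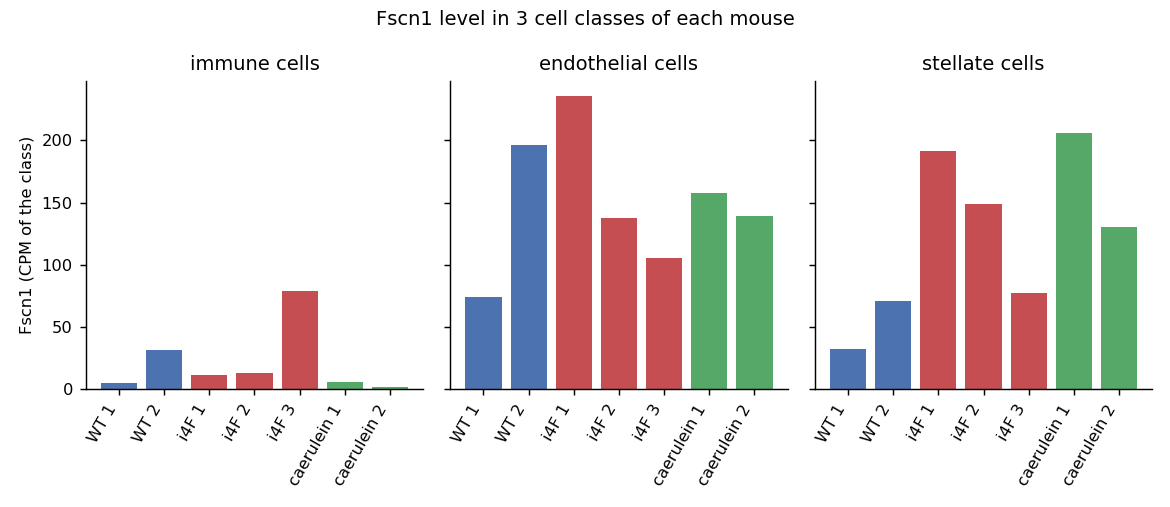
Fscn1 level in CPM of the immune, endothelial and stellate cells of each mouse. Stellate cells of every treated mouse lie above both WT mice, the library labelled i4F 3 (77.2 CPM) just above WT 2 (70.7 CPM), while the immune level is highest in the library labelled i4F 3.

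Siglech encodes Siglec-H, a receptor of mouse plasmacytoid dendritic cells that some tissue macrophages share. In immune cells it was at 2.86 and 14.1 CPM in WT, 1.31 and 0.118 CPM in i4F 1 and i4F 2, 18.5 CPM in the library labelled i4F 3, and 3.14 and 5.58 CPM in caerulein mice. The groups overlapped, and the counts were 1 UMI in i4F 2, 3 UMIs in WT 1, and 96 UMIs at the most. Of the immune cells, 1.35% (0.278 to 3.88%) and 3.22% (2.07 to 4.75%) had a Siglech UMI in WT, 0.192% (0.0829 to 0.378%), 0.0252% (0.000638 to 0.140%) and 0.989% (0.658 to 1.43%) in i4F, and 0.534% (0.391 to 0.712%) and 0.649% (0.402 to 0.991%) in caerulein mice, with 0 acinar cells in 6 of the 7 mice, which allows up to 0.505% of them in i4F 1 and less in the rest.

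Most cells with a Siglech UMI carried other genes in WT than in i4F and caerulein mice. WT 2 gave 30 of the WT UMIs and WT 1 gave 3. In WT, 90.9% of the UMIs lay in the cluster Macrophages_1, 30 UMIs in 26 of its 463 cells. After thinning, C1qa was found in 99.5% of these cells against 96.6% of the cluster's other cells, the mannose receptor gene Mrc1 in 74.9% against 51.8%, and Ccr9, a chemokine receptor of plasmacytoid cells, in 0 of 24 cells, which allows up to 12.5%, and in 0 of the other 385. In i4F mice, 91.1% of the UMIs lay in the cluster B_lymphocytes, 102 UMIs in 32 cells, and 87 of these UMIs came from the library labelled i4F 3. In those cells, Bst2, the tetherin of plasmacytoid cells, was found in 98.6% against 6.45% of the cluster's other cells. Ccr9 was found in 47.3% against 0.725%, Cox6a2 in 64.6% against 0.149%, and Irf8 in 86.5% against 22.4%, while the B cell receptor gene Cd79a was found in 4.21% against 93.5%. Without the library labelled i4F 3, 8 such cells remained, all of i4F 1, with Bst2 in 98.2% against 9.77%, Ccr9 in 56.9% against 1.87% and Cox6a2 in 28.7% against 0.553%.

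In caerulein mice, 86.6% of the UMIs again lay in B_lymphocytes, 103 UMIs in 63 cells. Bst2 was found in 75.7% against 28.4%, Ccr9 in 42.4% against 0.894%, Cox6a2 in 40.3% against 0.706% and Tcf4, the transcription factor that plasmacytoid cells need, in 48.0% against 6.32%. The Siglech cells of these i4F and caerulein clusters thus carried Bst2, Ccr9, Cox6a2 and Tcf4 more often than their cluster did. Those of the WT cluster Macrophages_1 carried macrophage genes. A further WT cell, in Macrophages_2, held 3 Siglech UMIs. Of all 27 WT immune cells with a Siglech UMI, 26 had a C1qa UMI, 1 a Ccr9 UMI and 2 a Cox6a2 UMI, before thinning. In the WT cluster Macrophages_1, where Ccr9 was not found, the other genes were found in 34.5% against 33.7% (Bst2), 1.62% against 0.219% (Cox6a2, on 1 cell) and 17.2% against 13.7% (Tcf4).

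**Figure D5:**
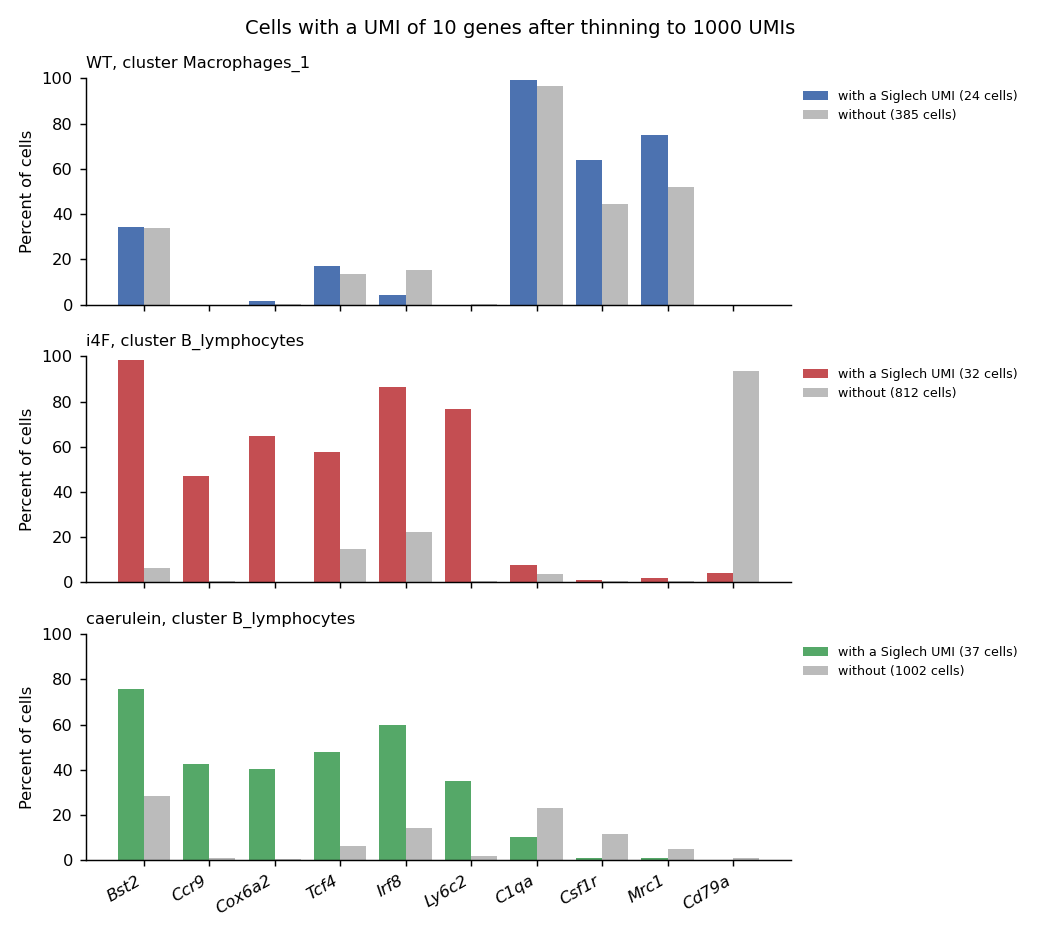
Percent of cells with a UMI of each of 10 genes after thinning to 1000 UMIs, in the cluster of each condition that held most Siglech UMIs, for cells with (coloured) and without (grey) a Siglech UMI. Ccr9 and Cox6a2 stand out in the coloured bars of i4F (47.3% and 64.6%) and caerulein (42.4% and 40.3%) and not in WT, where C1qa is near 100 in both bars.

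The levels were tested with edgeR's quasi-likelihood test over immune cells summed per mouse, with Benjamini-Hochberg adjustment over 12999 genes, and all 9 genes passed the filter on low counts. Of i4F against WT, 0 of the 9 genes and 0 of all genes tested (0%) passed an adjusted p of 0.05, with 1527 genes at an unadjusted p under 0.05 and 258 genes called by DESeq2 (1.98%). The largest differences were in Cd209a, at a log2 fold change of -4.39 (SE 1.16, adjusted p = 0.319), Clec9a at -3.36 (SE 1.29, adjusted p = 0.393) and Mgl2 at -3.05 (SE 1.35, adjusted p = 0.434). Xcr1 was at -2.56 (SE 1.06), Zbtb46 at -1.34 (SE 0.58), Flt3 at -1.27 (SE 0.56) and Clec10a at -1.09 (SE 0.36), and Siglech and Fscn1 were at -0.39 (SE 1.52) and 0.97 (SE 1.06). The median of all genes was 0.05. DESeq2 called Cd209a, at an adjusted p of 0.00607.

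The library labelled i4F 3 decided these calls. Without it, 6 of the 9 genes were lower in i4F than in WT, among 2297 genes called (17.6% of those tested). They were Cd209a at -6.56 (adjusted p = 0.00327), Clec9a at -6.54 (0.00328), Mgl2 at -6.29 (0.00292), Xcr1 at -4.11 (0.0151), Siglech at -3.41 (0.0457) and Zbtb46 at -1.85 (0.0383), all by edgeR. Clec10a, at -0.90 (adjusted p = 0.0721), and Flt3, at -1.60 (0.0790), did not pass, and Fscn1 turned to -0.52. The cDC1 pair, Cd209a and Mgl2 were lower in both of these i4F mice than in both WT mice, and leaving out any other mouse gave no call in immune cells.

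Of caerulein against WT, likewise, 0 of the 9 genes and 0 of all genes tested (0%) were called by edgeR, with 3133 genes at an unadjusted p under 0.05 and 1445 genes called by DESeq2 (11.1%). Every gene had a negative estimate, from -0.92 for Siglech (SE 1.66) to -6.03 for Mgl2 (SE 1.81, adjusted p = 0.136). Cd209a was at -3.65 (SE 1.30, adjusted p = 0.164), Xcr1 at -3.32 (SE 1.23), Zbtb46 at -2.78 (SE 0.68, adjusted p = 0.112), Clec9a at -2.71 (SE 1.41), Fscn1 at -2.04 (SE 1.18), Flt3 at -1.66 (SE 0.63) and Clec10a at -1.62 (SE 0.41, adjusted p = 0.114). DESeq2 called 4 of them, Cd209a, Xcr1, Zbtb46 and Clec10a, and gave Mgl2 no adjusted p. The library labelled i4F 3 is in neither group of this comparison but shares its fit, filter and scaling, and without it 6 genes were called, all lower in caerulein mice, among 3040 genes (23.2%). These were Mgl2 at -6.02 (adjusted p = 0.00111), Cd209a at -3.65 (0.00521), Xcr1 at -3.29 (0.0185), Zbtb46 at -2.78 (0.00999), Clec9a at -2.74 (0.00869) and Clec10a at -1.67 (0.00960).

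Between caerulein and i4F, 0 of the 9 genes were called over immune cells, against 1 of all genes (0.00769%), with 2334 genes at an unadjusted p under 0.05 and 923 called by DESeq2 (7.1%), Fscn1 among them. Fscn1 was at -3.01 in caerulein against i4F mice (SE 1.13, adjusted p = 0.237). Without the library labelled i4F 3, Clec9a and Cd209a were higher in caerulein mice, at 3.80 (adjusted p = 0.0248) and 2.91 (0.0339), among 1258 genes called (9.62%). With it they were at 0.65 and 0.74. The WT mice serve both comparisons against WT, so that the changes of i4F and caerulein mice are not independent of each other.

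Library names fall into 2 series, 1 with WT 1 and the i4F libraries and 1 with WT 2 and the caerulein libraries. With the series as a term in the fit, no gene was called, and immune estimates against WT were -4.56 in i4F and -3.46 in caerulein mice for Cd209a and -2.89 and -6.17 for Mgl2. What the series stands for is not stated in the labels.

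Marker genes of immune cell types differed in level between the mice too. Over immune cells, the 10 macrophage markers summed to 5672 and 9139 CPM in WT, 16639 and 11347 CPM in i4F 1 and i4F 2, 3612 CPM in the library labelled i4F 3, and 14416 and 13172 CPM in caerulein mice. The 6 B cell markers summed to 1274 and 908 CPM in WT, 232 and 117 CPM, 2342 CPM in the library labelled i4F 3, and 18.5 and 18.3 CPM in caerulein mice. The 8 dendritic cell markers summed to 16894 and 14462 CPM in WT, 1666 and 705 CPM, 7567 CPM in the library labelled i4F 3, and 1665 and 1516 CPM in caerulein mice. No macrophage, B cell or dendritic cell marker was at 0 in any mouse. The libraries of i4F 1, i4F 2 and the caerulein mice, low in Cd209a, Mgl2, Xcr1 and Clec9a, had a higher CPM of macrophage and a lower CPM of B cell markers than the WT mice. Their dendritic cell sum was lower too. That sum includes Flt3, Zbtb46, Cd209a, Xcr1 and Clec9a themselves, beside H2-Eb1, H2-Ab1 and Ccr7, and is not independent of the results. Also below WT in Cd209a, Mgl2 and Clec9a, the library labelled i4F 3 had the lowest macrophage and the highest B cell sum of the 7. The part of this makeup in the results was not tested.

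In sums over all cells, levels also depend on the share of immune cells in the library. Over all cells, edgeR called 0 of the 9 genes between i4F and WT, 0 of all 18340 genes tested (0%), with 6383 genes at an unadjusted p under 0.05 and 4351 called by DESeq2 (23.7%), Fscn1 among them. Between caerulein and WT it called 0 of the 9 genes against 9.08% of all genes, and DESeq2 called Zbtb46, among 29.9% of all genes. Between caerulein and i4F it called 0 of the 9 and 0 of all genes (0%), with 2637 genes at an unadjusted p under 0.05 and 990 called by DESeq2 (5.4%). Zbtb46 was at 8.68 and 8.39 CPM in WT, 2.84, 2.46 and 5.49 CPM in i4F, and 1.85 and 2.16 CPM in caerulein mice, log2 fold changes of -0.88 (adjusted p = 0.155) and -1.70 (adjusted p = 0.0555) against WT. Clec10a did not have this order over all cells, with 7.73 and 19.4 CPM in WT and 14.1 to 18.6 CPM in the treated libraries. Without the library labelled i4F 3, 6 genes were called between i4F and WT, among 9543 genes (49.8%), with Zbtb46 at -1.30, Xcr1 at -2.35, Clec9a at -4.96, Cd209a at -5.00 and Mgl2 at -4.83, and Fscn1 higher at 1.90.

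Of the 9 genes, only Zbtb46, Clec10a and Fscn1 passed the filter on low counts in endothelial and in stellate clusters. In endothelial cells, Zbtb46 was at 31.5 and 29.7 CPM in WT, 13.6 and 15.7 CPM in i4F 1 and i4F 2, 28.6 CPM in the library labelled i4F 3, and 11.7 and 25.4 CPM in caerulein mice, below WT in every treated library and not called (log2 fold changes of -0.51 and -0.82, adjusted p = 0.522 and 0.354). None of the 3 was called between i4F and WT, against 0.81% of all 8153 genes (1486 at an unadjusted p under 0.05), and none between caerulein and i4F, against 0.601% (819 at an unadjusted p under 0.05). Clec10a was called between caerulein and WT, at 4.63 (adjusted p = 0.0249), against 4.11% of all genes, and the call was lost without either WT mouse (4.26 and 4.92, adjusted p = 0.232 and 0.127), without caerulein 2 (4.64, 0.108) and with the series term (4.31, 0.170). Without caerulein 1 the gene did not pass the filter.

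In stellate cells, tested after the compartments of Fscn1 had been seen, Zbtb46 was at 6.93 and 6.03 CPM in WT, 3.12, 2.72 and 5.94 CPM in i4F, and 1.79 and 1.60 CPM in caerulein mice. It was lower in caerulein mice than in WT, at -1.74 (adjusted p = 0.0425), and Clec10a was higher, at 3.48 (0.0362), 2 of the 3 genes against 17.1% of all 14818. Of i4F against WT, Clec10a was higher at 2.99 (adjusted p = 0.0445), 1 of the 3 against 20.6% of all genes. The size of both Clec10a changes is uncertain, as the WT stellate cells gave 2 UMIs of it. Of caerulein against i4F none was called, against 0.459%. Fscn1 was at 1.56 (adjusted p = 0.0718) and 1.85 (0.0617), and passed without the library labelled i4F 3, at 1.83 (0.0157) and 1.84 (0.0187). Of the mice left out in turn, the library labelled i4F 3 was the only one without which the Zbtb46 and Clec10a calls passed, and Clec10a was not testable without caerulein 1, i4F 1 or i4F 2. The adjusted p of Zbtb46 in caerulein mice ran from 0.00439 to 0.204 over these fits and was 0.147 with the series term.

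Other genes of the same programmes were read from 6 lists. Over immune cells, none of the tested genes was called in any of the 3 comparisons. Of all 12999 genes, 0% were called in i4F against WT, 0% in caerulein against WT and 0.00769% in caerulein against i4F. The genes tested were 15 of 15 transcription and growth factor genes, 11 of 12 of cDC1, 11 of 12 of cDC2, 16 of 17 of mature migratory cells, 12 of 14 of plasmacytoid cells and 9 of 9 of antigen presentation. The median log2 fold change of the antigen presentation list was -2.04 in i4F and -3.02 in caerulein mice against WT, where all genes had medians of 0.05 and 0.01. Its summed level was 61895 and 55725 CPM in WT, 7803 and 4315 CPM in i4F 1 and i4F 2, 30959 CPM in the library labelled i4F 3, and 8811 and 7623 CPM in caerulein mice. The cDC1 list had medians of -1.33 and -1.63, and the cDC2 list -0.88 and -1.90. The mature list had medians of -0.11 in i4F and -2.01 in caerulein mice, and the plasmacytoid list 0.25 and -0.32. The transcription and growth factor list had -0.07 and -0.66. Without the library labelled i4F 3, the i4F medians were -3.39 for antigen presentation, -1.44 for cDC1, -1.999 for cDC2, -1.28 for mature cells, 0.13 for plasmacytoid cells and 0.08 for the factors, where all genes had -0.02. In that fit, against the 17.6% of all genes called, 42 of the 74 listed genes were called between i4F and WT (56.8%), 7 higher and 35 lower. All 9 antigen presentation genes were lower, 5 of 11 of the cDC1 list were lower and 0 higher, 7 of 11 of the cDC2 list lower and 1 higher, 7 of 16 of the mature list lower and 1 higher, 5 of 15 factors lower and 3 higher, and of 12 plasmacytoid genes 2 lower and 2 higher. Between caerulein and WT, 45 of 74 were called there (60.8%, against 23.2% of all genes), 6 higher and 39 lower, with 9 of 9 antigen presentation and 11 of 16 mature genes lower and 1 mature gene higher.

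Over all cells, 5 of the 75 listed genes tested (6.67%, against 9.08% of all genes) were called in caerulein mice against WT, and all 5 rose. They were Csf2rb and Csf2rb2, subunits of the receptors of GM-CSF and related cytokines, at log2 fold changes of 2.26 and 1.97 (2 of 15), Sirpa, a receptor of the signal CD47, at 1.76 (1 of 11), and Lair1, an inhibitory collagen receptor, and Tlr7, a sensor of RNA, at 3.16 and 2.56 (2 of 12). None of the cDC1, mature or antigen presentation lists was called there. Without the library labelled i4F 3, 36 of the 75 were called between caerulein and WT (48.0%, against 46.4% of all genes), 19 higher and 17 lower, so that the rise of all called genes holds for the fit of 7 mice alone. Between i4F and WT that fit called 18 higher and 29 lower of 75 (62.7%, against 49.8% of all genes). All 9 antigen presentation genes were lower there, at a median of -1.92, which was 0.08 with all mice. The 5 genes called with all mice are also expressed by macrophages, whose clusters held most immune cells of caerulein mice. The part of those clusters in the 5 rises was not tested. In endothelial cells, 8 of 35 listed genes rose and 2 fell in caerulein mice (28.6%, against 4.11% of all genes). Those of the transcription and growth factor list were led by Spi1, which encodes PU.1, at 5.64, and Csf2ra at 3.99, and those of the cDC2 list were Itgam, Sirpa and Il1r2, whose WT counts were too low for a fold. Socs2 and Irf7 fell there by 1.80 and 1.86. In i4F mice, Csf2rb rose in endothelial cells by 3.20, the only 1 of 35 listed genes called (2.86%, against 0.81% of all genes). Without the library labelled i4F 3, 7 of the 35 were higher and 7 lower in i4F mice (40.0%, against 14.3% of all genes), and 8 were higher and 4 lower in caerulein mice (34.3%, against 11%). In stellate cells, 10 of 53 listed genes rose and 3 fell in i4F mice (24.5%, against 20.6% of all genes), and 8 rose and 2 fell in caerulein mice (18.9%, against 17.1%), shares near those of all genes. Without that library the directions were more even, with 16 of 55 higher and 14 lower in i4F mice (54.5%, against 47.8% of all genes) and 15 higher and 11 lower in caerulein mice (47.3%, against 39.7%). Spi1 rose by 3.56 and 5.05, and Naaa fell by 1.67 and 1.63. The macrophage markers moved with these rises too, at the summed levels given above for both classes, and their part was not tested.

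Genes whose levels went most like those of each gene were sought over 92 combinations of mouse and named cluster, among 15310 genes, by the Pearson correlation of log2(CPM + 10). The points share libraries, depth and the cluster names, and the values are a description. Genes with at least 200 UMIs were ranked, and Xcr1 and Clec9a, at 198 and 191 UMIs, were below that floor and enter the ranks of the other genes of the 9 alone. Clec9a and Xcr1 went most like each other (r = 0.953), and Cd209a went most like Clec9a (0.941) and Xcr1 (0.912). Among the ranked genes, Il12b was next for Clec9a (0.867), near Xcr1 (0.934) and nearest for Cd209a (0.860), followed there by Clec4b1 (0.812). These are likenesses of clusters and not of cells. Flt3 was nearest to Gm38115 (0.796), Ryr1 (0.787) and Ccl22 (0.785). Mgl2 went like Dcstamp (0.926), Slamf8 (0.923) and Timd4 (0.885), and Clec10a like Tnip3 (0.933), Ptpro (0.931) and Ticam2 (0.899), so that the 2 neighbouring lectins shared none of these, while their correlation with each other (0.803) was the highest of either with another of the 9 genes. Zbtb46 was nearest to Cd300lg (0.778), Ushbp1 (0.752) and She (0.750), and Fscn1 to Exoc3l4 (0.690), Plpp1 (0.673) and Csgalnact1 (0.663). Siglech was nearest to Ccr9 (0.809), followed by Gapt (0.625) and Scimp (0.597).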

How the data were processed

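The deposited counts, UMIs of every gene in every cell in a table for each condition, were made by the authors with Cell Ranger (version not given in the sources used here) on mm10, and are all whole numbers whose sums equal the deposited totals of each cell. Whether they precede or follow the authors' SoupX correction of ambient RNA is not stated. The authors removed cells by gene number and mitochondrial share and named the deposited clusters in each condition apart. No step against doublets is stated or was added. The deposited percent of each cell's UMIs on mitochondrial genes was not used for a result. A gene without an entry in a table was read as 0.

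UMIs were summed per mouse over all, immune, endothelial and stellate clusters with at least 20 cells (CPM: per 1000000 UMIs of the class) and tested in R 4.3.3 with edgeR 4.0.16 (glmQLFTest, TMM, filterByExpr, 7 mice in a fit of 3 groups, two-sided, Benjamini-Hochberg threshold 0.05). DESeq2 1.42.0, no filter, 2 groups only, a replicate block, the library series and each mouse left out were alternatives. On simulated sums, 200 genes of more than 200 UMIs were changed in i4F by a log2 of 2 or 3 in either direction. Of these, 70.0% were recovered in immune cells, with 3 false calls. All genes were drawn at a common dispersion, with no mouse unlike its group. Zbtb46, Xcr1 and Clec9a, at 118, 187 and 190 UMIs in immune cells, lie below that floor, so that the recovery does not give the power for them. Thinned shares are expected values for 1000 UMIs drawn per cell, over cells with at least that number. Nothing states that mice shared litters, so that p-values rest on the spread between these 7 mice alone. All 9 genes are named, and of the other lists at most 3 called genes that rose and 3 that fell, by size of change, with no overlap of mice. The genes, lists and tests were chosen with earlier results of these data known. Stellate tests were added after seeing the data.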

Additional observations from a re-analysis of the deposited data

Results flagged for a closer look

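Clec10a lay on opposite sides of WT in different classes of cells, and the difference between classes was not tested. Within classes, edgeR with all mice did not call the immune differences (adjusted p = 0.374 for i4F and 0.114 for caerulein). It called the stellate ones (0.0445 and 0.0362) and the endothelial one of caerulein mice (0.0249). Those calls were lost in several refits, and macrophage markers moved with the counts of both classes, as given above. In group means, the stellate level did not exceed the acinar level of the same mice, also given above. Between i4F and WT mice the mean Clec10a level was 0.410 times the WT level in immune cells, with every i4F library below both WT mice, while in stellate cells every i4F library lay above both. Between caerulein and WT mice the immune ratio was 0.285, again with higher levels in the stellate cells of every caerulein mouse. Between caerulein and WT mice the endothelial ratio was 27.8, on 3 UMIs in WT and 26 in caerulein mice, while the immune level was lower.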

How the results depend on the processing

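The counts of the 9 genes called with edgeR depended on the fit. The share of all genes called is given above for DESeq2 over all and immune cells. It is also given for most fits without the library labelled i4F 3. For the other settings it is not given, so that their counts describe the fits and are not a result about the 9 genes. Over all cells, i4F against WT gave 0 calls, 1 with DESeq2, 5 with a replicate block and 0 to 6 with a mouse left out. Caerulein against WT gave 0, but 1 without TMM, with DESeq2 or without a filter, 2 with only the 2 groups or with a replicate block, and 0 to 2 with a mouse left out. Caerulein against i4F gave 0, 1 with a replicate block and 0 to 2 with a mouse left out. In immune cells, i4F against WT gave 0 calls, 1 with DESeq2, 4 without a filter, 5 with a replicate block and 0 to 6 with a mouse left out. Caerulein against WT gave 0, 4 with DESeq2, 7 without a filter, 6 with only the 2 groups, 6 with a replicate block and 0 to 6 with a mouse left out. Caerulein against i4F gave 0, 1 with DESeq2, 2 without a filter, 1 with a replicate block and 0 to 2 with a mouse left out. In endothelial cells, the ranges with a mouse left out were 0 to 0 for i4F against WT, 0 to 1 for caerulein against WT and 0 to 0 for caerulein against i4F, with 0 calls of caerulein against WT under the library series and 1 of caerulein against i4F without a filter. The library labelled i4F 3 alone gave the upper ends over all and immune cells, and the cause was not tested. Replicate numbers did not pair the mice: the deviations of mice with the same number correlated at -0.563 to 0.154 over all cells and -0.394 to 0.0242 over immune cells, so the replicate block has no basis in the design.

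Of the estimates against WT, and those of Clec9a, Cd209a and Fscn1 in immune cells for caerulein against i4F, single genes turned sign as follows, on the log2 scale. Over all cells, Siglech for i4F against WT was at -1.84 with a replicate block and -2.08 without i4F 3 (-2.08 to 3.95 with a mouse left out), Xcr1 at 0.48 without WT 1, 0.20 without i4F 1 and 0.25 without i4F 2 (-2.35 to 0.48), and Clec10a at -0.0502 without WT 1 (-0.0502 to 1.46). Caerulein against WT, Fscn1 was at -0.997 and Clec9a at 0.0038 without stellate clusters (chosen after seeing the data). Fscn1 in immune cells was at -0.41 for i4F against WT with a replicate block and -0.52 without i4F 3 (-0.52 to 3.05 with a mouse left out), and at 0.0634 for caerulein against WT without WT 2 (-3.07 to 0.0634). Siglech in immune cells, i4F against WT, was at 1.32 with the library series, 1.34 without WT 2, 0.13 without i4F 1 and 0.22 without i4F 2 (-3.41 to 1.34), and at 0.84 for caerulein against WT without WT 2 (-1.53 to 0.84). For caerulein against i4F, Clec9a was at -0.35 and Cd209a at -0.53 in the clusters named macrophages plus the caerulein cluster named B_lymphocytes. The B lymphocyte-named clusters of WT and i4F mice were left out of that fit. In the same comparison over all immune clusters, Clec9a was at -0.0043 and -0.0066 without i4F 1 or i4F 2 (-0.0066 to 3.80). Cd209a was at -0.36 there without caerulein 1 (-0.36 to 2.91). Endothelial Fscn1 was at -0.32 without WT 1 and -0.10 without i4F 1 for i4F against WT (-0.32 to 1.16), and at -0.35 with the library series and -0.38 without WT 1 for caerulein against WT (-0.38 to 1.09). Of 383 such gene estimates under alternatives other than leaving out a mouse, 313 kept their direction and side of the threshold, 57 passed it, 5 lost it and 8 reversed. With a mouse left out, 17 of 343 estimates reversed.

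Thinned shares moved with the number of UMIs kept. Of WT immune cells, 5.04% had a Cd209a UMI at 1000 UMIs, 3.37% at 500 and 8.25% at 2000, 14.8% had an Mgl2 UMI at 1000, 9.31% at 500 and 23.0% at 2000, and 9.82% a Clec10a UMI at 1000 and 6.38% at 500. In i4F mice, Cd209a moved from 0.432% to 1.17%, Clec10a from 4.37% to 8.58% and Mgl2 from 1.56% to 4.10% at 2000 UMIs, and they were at 0.194%, 2.17% and 0.720% at 500. These are means over 3 mice, with SDs at 1000 UMIs of 0.430%, 2.42% and 2.17%. By mouse, as given above for 1000 UMIs, the library labelled i4F 3 was highest of the i4F mice for Cd209a and Mgl2 and lowest for Clec10a. In caerulein mice, Cd209a moved from 0.882% to 0.570% at 500, Clec10a moved from 4.13% to 2.31% at 500 and 6.35% at 2000, and Mgl2 from 0.346% to 0.183% at 500.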
